A study of Mus musculus with 47 samples.

Results

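The mix of AMPA receptor subunit transcripts was measured in single NPY-positive interneurons through 4 genes, Gria1, Gria2, Gria3 and Gria4, of the 22800 gene symbols in the read count table. Members were taken by symbol, and for each cell the share of each gene in the summed Gria reads was computed. Each library was made from the polyA RNA in the cytosol of a single recorded neuron, taken up through the patch pipette in a slice. The cells come from 10 columns of the auditory cortex (AC), 13 of hippocampal CA3 and 3 of CA1, so from 26 of 47 columns. In AC they lay in the superficial layers and in CA3 in stratum lacunosum-moleculare.

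All cells came from male and female mice aged 3 to 8 weeks, of a strain named NPY-EGFP in the labels and NPY-hrGFP in the study, in which a green fluorescent protein marks cells that express neuropeptide Y. The labels count 8 mice and assign none of them to a cell. Each region was therefore taken as 1 sample, no test between regions was made, and every SD given here describes the spread over cells. The slice plane, coronal for AC and horizontal for hippocampus, goes with the region and cannot be told apart from it.

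AMPA receptors are tetramers that carry most of the fast excitatory current in the brain, and the 4 Gria genes encode their pore-forming subunits. The subunit encoded by Gria2 sets how much calcium the channel lets through. At the Q/R site in its pore loop the genome encodes glutamine, and RNA editing by the enzyme ADARB1 turns the codon into one for arginine. Channels that contain the edited subunit pass little calcium, and channels without it pass calcium and rectify inwardly. Interneurons are known to vary widely in how much Gria2 they express. Counts per gene do not show editing, so only the amount of each transcript is described here.

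The exon that holds the Q/R site is shown because the editing that separates Gria2 from the other genes acts there. The sequences are read from the GENCODE vM21 transcripts of GRCm38, with the codon of the site in capitals, and run from 60 bases before the codon to the end of the exon.

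Gria1: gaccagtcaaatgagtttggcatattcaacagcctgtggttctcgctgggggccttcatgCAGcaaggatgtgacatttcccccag

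Gria2: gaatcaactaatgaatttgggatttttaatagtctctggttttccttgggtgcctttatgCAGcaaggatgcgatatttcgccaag

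Gria3: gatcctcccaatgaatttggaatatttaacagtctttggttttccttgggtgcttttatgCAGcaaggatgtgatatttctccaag

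Gria4: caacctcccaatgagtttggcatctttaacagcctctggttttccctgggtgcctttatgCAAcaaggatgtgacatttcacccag

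The Gria2 stretch lies at chr3:80706888-80706973 on the minus strand, in exon 11 of 16, and holds codon 607. The Gria1 stretch lies at chr11:57243034-57243119 on the plus strand, in exon 11 of 16, and holds codon 600. For Gria3 it lies at chrX:41610205-41610290 on the plus strand, in exon 11 of 16, with codon 612. For Gria4 it lies at chr9:4464114-4464199 on the minus strand, in exon 12 of 17, with codon 608. Over these 86 bases Gria1 differs from Gria2 at 22 positions, Gria3 at 12 and Gria4 at 16. All of them encode glutamine here in the genome, with CAA as the codon in Gria4 and CAG in the other genes.

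Of the markers of the labelled cell type, Gad1, Gad2 and Npy had reads in all 26 cells. Slc32a1, the vesicular GABA transporter, had reads in 5 of 10 AC, 12 of 13 CA3 and 2 of 3 CA1 cells, and Lamp5 in all but 1 CA3 cell. The cells of the rule held 601781 to 7949918 reads on genes and 3163 to 8149 detected genes. Summed Gria reads ran from 353 to 7088 per cell in AC, from 158 to 9309 in CA3 and from 761 to 4055 in CA1. Cells N41 of AC and N27 of CA3, with 353 and 158, stand apart from the rest. Markers of astrocytes, oligodendrocytes and microglia, 16 genes in all, summed to at least 1000 CPM (reads per 1000000 reads on genes) in 4 AC, 3 CA3 and 1 CA1 cells. Astrocyte markers ran from 0 to 1089 CPM in AC, from 0 to 0.421 in CA3 and from 82.9 to 882 in CA1. Oligodendrocyte markers ran from 0 to 367 CPM in AC, from 0 to 1043 in CA3 and from 0 to 262 in CA1. Microglia markers reached 4365 CPM in AC, 2161 in CA3 and 251 in CA1, each from 0, with all 6 of their genes read in AC and in CA3. Aqp4 and Mog had no reads in any of the 26 cells. Pdgfra and Cspg4, which mark oligodendrocyte precursors, cells that also express AMPA receptors, had no reads in any of the 26 cells either.

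Gria2 took a larger part of the Gria reads in AC than in CA3, and Gria1 a larger part in CA3 than in AC. In AC the mean share of Gria2 was 47.2% ± 30.9 (SD over cells, n = 10) against 22.97% ± 19.8 in CA3 (n = 13), a difference of 24.2 percentage points. For Gria1 the mean shares were 22.95% ± 29.2 and 52.7% ± 28.2, a difference, AC minus CA3, of -29.8 points. The Gria1 difference was slightly larger than the SD over cells, 28.7 points when both regions are combined, and the Gria2 difference slightly smaller than its combined SD of 25.9 points. A difference of at least 10 percentage points is spoken of as called, a size set without a test.

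**Figure D1:**
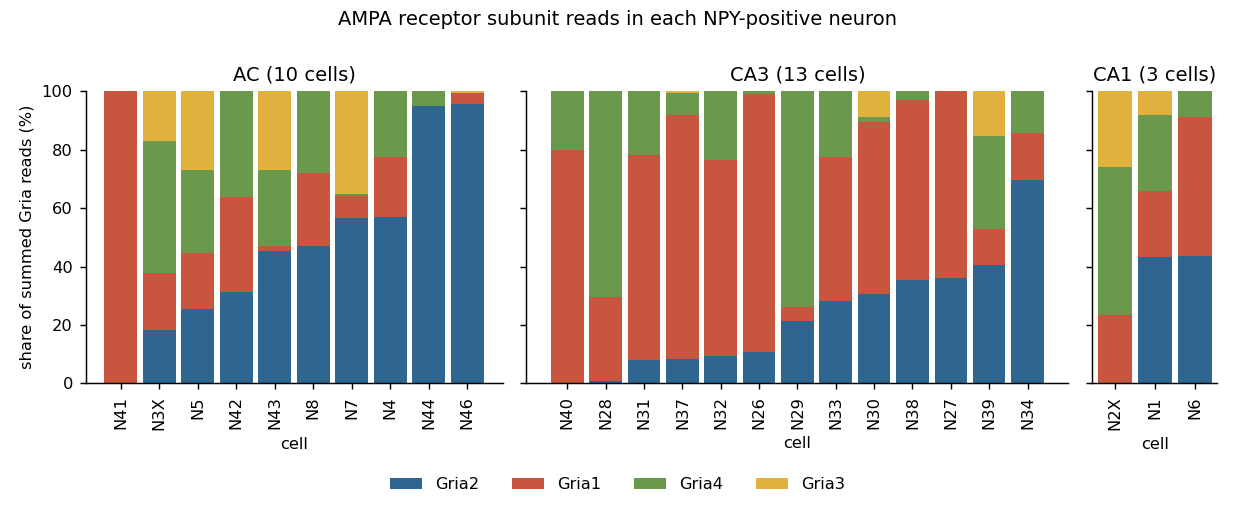
Stacked bars give the share of each AMPA receptor subunit gene in the summed Gria reads (%, y axis) of every cell (x axis), ordered within AC, CA3 and CA1 by the Gria2 share. Gria1 is the tallest segment in 9 of the CA3 cells and 1 of the AC cells, and Gria2 in 6 of the AC cells and 2 of the CA3 cells.

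In AC the share of Gria2 ran from 0% in N41 through a median of 46.2% to 95.5% in N46. It was 18.4% in N3X, 25.6% in N5, 31.3% in N42, 45.5% in N43, 46.9% in N8, 56.6% in N7, 57.1% in N4 and 94.97% in N44. Thus 9 of 10 AC cells gave Gria2 more than 10% of their Gria reads, and N44 and N46 gave it nearly all of them. In CA3 the share ran from 0.0235% in N40 through a median of 21.4% to 69.5% in N34. It was 0.696% in N28, 8.05% in N31, 8.21% in N37, 9.37% in N32 and 10.6% in N26. It was 21.4% in N29, 28.3% in N33, 30.6% in N30, 35.3% in N38, 36.1% in N27 and 40.4% in N39. So 5 of 13 CA3 cells were below 10%, and 1 of 13, N34, lay above the AC median. The regions overlapped over most of their range, and 8 of 10 AC cells lay above the CA3 median.

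Counting error was small against this spread. The exact Clopper-Pearson 95% interval of the Gria2 share was 94.5 to 96.3% in N46 and 0.000596 to 0.131% in N40, and widest in N27, at 28.6 to 44.1%. In N41 no Gria2 read was found among 353 Gria reads, which allows a share of up to 0.850% by the limit of 3 reads for a count of 0, and of 1.04% by the Clopper-Pearson interval. Because the cDNA was amplified, reads are not separate molecules, and such intervals and limits cover counting error only. A further, limited measure of error came from N4X, an AC column outside the rule. Over genes, its log2 counts had a Pearson r of 0.995 with those of N4, while no other of 402 pairs within a region passed 0.724, and the pair was taken as 1 cell. Between N4 and N4X the shares of Gria1 and Gria2 differed by -3.27 and 3.29 points, that of Gria4 by -0.017, and Gria3 had no read in either. The 95% intervals of the Gria1 share were 18.9 to 22.3% in N4 and 16.2 to 18.4% in N4X. These did not overlap, while those of Gria2 did, so for Gria1 the pair differed by more than counting error. At which step the 2 columns part is not known, and losses before it are not covered.

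The share of Gria1 ran from 0% in N44 through a median of 19.3% to 100% in N41 in the AC cells. Without N41 the AC cells reached at most 32.4%, in N42. In CA3 the share ran from 4.72% in N29 through a median of 61.8% to 88.4% in N26, and 8 of 13 cells gave more than 50% of their Gria reads to Gria1. The CA3 cells N29, N39, N34 and N28 had shares of 4.72, 12.5, 16.1 and 28.9%, none above the highest AC cell other than N41. Gria2 reads outnumbered Gria1 reads in 7 of the AC cells, but only in 3 of the 13 from CA3. The log2 ratio of Gria2 to Gria1 reads, with 1 read added to each, had a median of 1.19 in AC and -0.94 in CA3.

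**Figure D2:**
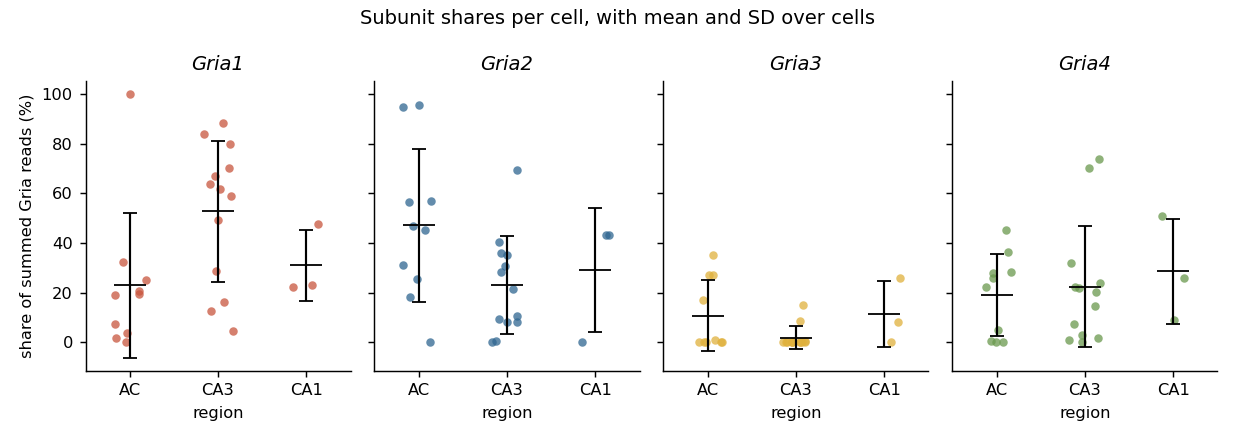
Each point is the share of 1 gene in the summed Gria reads of 1 cell (%, y axis) by region (x axis), with the mean as a wide bar and the SD over cells as error bars. The points of AC and CA3 overlap for all 4 genes, while the means of Gria1 (22.95 and 52.7%) and Gria2 (47.2 and 22.97%) lie on opposite sides.

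Gria4, whose product gives fast receptor kinetics in many interneurons, had similar mean shares of 19.2% ± 16.5 in AC and 22.4% ± 24.3 in CA3. It was 0% in N41 and N46 of AC and in N27 of CA3, and highest at 45.1% in N3X of AC and at 73.8% in N29 of CA3. The difference of -3.26 points was well below the spread over cells, and it turned to 1.02 without N29. The CA3 cells N28 and N29, at 70.4 and 73.8%, were the only cells of these 26 besides CA1 cell N2X, at 50.7%, in which Gria4 made up more than 50%. N29 was also the CA3 cell without a read of Lhx6, a transcription factor of interneurons from the medial ganglionic eminence. The other 12 CA3 cells had reads of it, N27 and N38 with 2 each and N28 with 824. No AC or CA1 cell had any, at Gria4 shares from 0 to 50.7%.

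Gria3, the X-linked member, was the least read gene of the 4 in AC and in CA3. At least 10 reads were found in 5 of the AC cells but in 3 of the 13 from CA3. In AC its share was 35.2% in N7, 27.1% in N5, 27.02% in N43, 17.1% in N3X and 0.719% in N46. The other AC cells had no Gria3 read. In CA3 it was 15.2% in N39, 8.71% in N30, 0.695% in N37 and, from 1 read, 0.0314% in N26, and 9 of 13 cells had none. The mean shares of 10.7% ± 14.3 and 1.89% ± 4.66 differed by 8.82 points, less than the SD over AC cells. The difference passed 10 points in some alternatives, at 12.4 over all labelled cells and 16.8 without cells rich in glial markers, and the medians differed by 0.359. In AC the gene was thus either without a read or, N46 aside, a sizeable part of the Gria reads. A count of 0 does not show that the transcript was absent from the cell.

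The means of the 3 CA1 cells lay between those of the other regions for Gria1 and Gria2. Their Gria1 shares were 22.5% in N1, 23.3% in N2X and 47.6% in N6, with a mean of 31.1% ± 14.3 (SD over cells, n = 3). Their Gria2 shares were 43.4% in N1, 0.173% in N2X and 43.4% in N6, with a mean of 28.99% ± 24.96. The cells were unlike each other, since N2X had 7 Gria2 reads among 4055, while the other cells gave Gria2 a large part. Gria3 took 8.28% in N1, 25.8% in N2X and 0% in N6, and Gria4 took 25.9, 50.7 and 8.97% in the same order. The order of the mean Gria2 share was AC, CA1 and CA3. AC and CA1 differed by 18.2 points, and by 3.77 without N2X. CA1 and CA3 differed by 6.02 points, by -1.20 without N6 by -7.92 in summed reads, by 20.4 without N2X and by 21.9 in medians, so neither main step exceeded the spread over cells. For Gria1 the order was reversed, with CA1 21.6 points under CA3, or -21.6 as CA1 minus CA3, and AC minus CA1 at -8.15, both less than the larger SD of each pair. CA1 minus CA3 was -38.5 points in medians and -12.9 over all labelled cells. AC minus CA1 was 0.09 without N6 and -16.7 without N41, so the order of AC and CA1 rests on single cells.

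How the subunits compared with each other depended on the length each gene is given. A library made from fragments of whole transcripts gives a longer gene more reads, so genes were compared per kilobase. The exons of Gria2 cover 15548 bases in GENCODE vM21, those of Gria3 9859, of Gria4 6305 and of Gria1 6043. The longest coding sequences, from 2649 bases in Gria2 to 2721 in Gria1, are nearly equal. Per kilobase of all exons, the mean shares in AC were 34.8% ± 31.2 for Gria2, 28.6% ± 28.7 for Gria1, 26.02% ± 20.6 for Gria4 and 10.6% ± 15.1 for Gria3. In CA3 they were 60.7% ± 29.5 for Gria1, 25.4% ± 26.6 for Gria4, 12.3% ± 12.95 for Gria2 and 1.62% ± 4.09 for Gria3. Gria1 was therefore the first subunit in CA3 on each length basis, and led in 9 of 13 cells with reads, coding length and exon length alike.

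In AC the leading subunit was less settled. Gria2 led in 6 of 10 cells by reads or per kilobase of coding sequence, and in 4 of 10 per kilobase of exons, where Gria4 led in 5. Gria2 exceeded Gria1 in 7 of 10 AC cells by reads or coding length and in 5 of 10 by exon or transcript length. In CA3 it did so in 3 of 13 cells on every basis. The difference in Gria2 share between AC and CA3 was 24.2 points in raw reads, 24.17 per kilobase of coding sequence, 22.51 per kilobase of exons and 21.99 per kilobase of the longest transcript, and that in Gria1 share ran from -32.2 to -29.6 points.

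**Figure D3:**
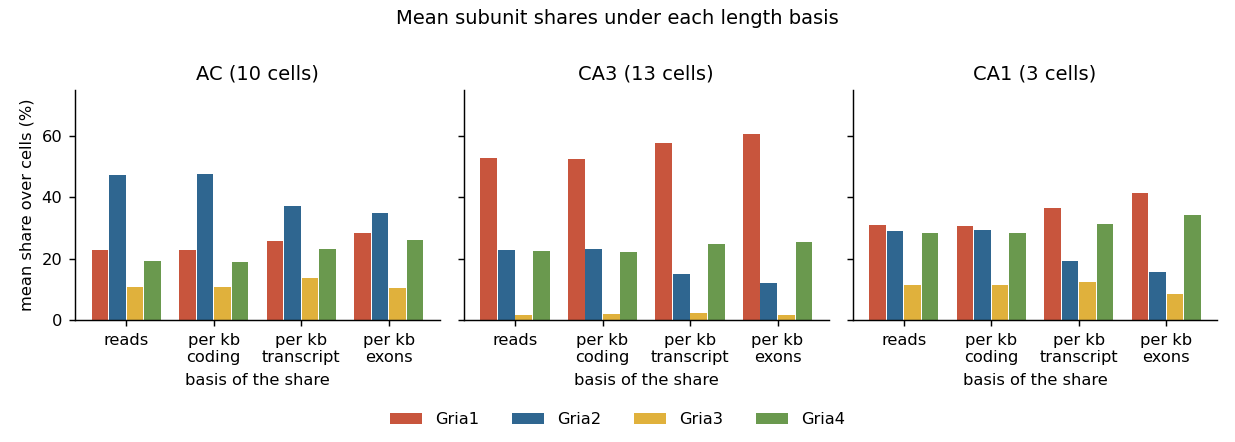
Bars give the mean share of each gene over the cells of a region (%, y axis), from raw reads and from reads per kilobase of coding sequence, longest transcript or all exons (x axis). SDs over cells, 4.09 to 31.2 points per kilobase of exons in AC and CA3, are not drawn. Gria1 stands highest in CA3 on each basis, and the Gria2 bar shrinks from 47.2 to 34.8% in AC and from 22.97 to 12.3% in CA3.

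The summed level of the 4 genes differed less between regions than the mix. Summed Gria reads took 80.8 to 1857 CPM in AC with a median of 1371, 63.2 to 2537 in CA3 with a median of 988, and 1014 to 1266 in CA1 with a median of 1265. The ranges of AC and CA3 overlap, and the highest value was in CA3, in N38. The means over cells were 1273 ± 555 CPM in AC, 1107 ± 649 in CA3 and 1182 ± 145 in CA1, and differed by less than the SDs of AC or CA3.

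Gene by gene, levels were set on a scale of log2(count divided by the scran size factor + 1), and a difference of at least 1 is spoken of as called. Of the 4 genes, Gria2 and Gria3 were called towards AC and Gria1 towards CA3. All 4 passed the filter, which asked for reads in 10 or more of the 26 cells, Gria3 with 11 cells. Of the 6597 genes that passed, 16.01% were called towards AC and 47.04% towards CA3. The median number of detected genes was 5008 in AC and 5704 in CA3, and its part in these shares was not tested. The median difference of all these genes was -0.85, and values relative to it are given beside the differences between AC and CA3.

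The Gria1 level ran from 0 to 10.95 in AC with a median of 9.15, and from 6.50 to 12.30 in CA3 with a median of 11.27. The means of 8.07 ± 3.20 and 10.18 ± 2.08 differed by -2.11, or by -1.26 relative to all genes, less than the SD over AC cells. Without N44, the AC cell with no Gria1 read, the difference was -1.22. In CPM of each cell, 8 of 13 CA3 cells lay above every AC cell, at up to 1567 CPM against at most 419. Summed over cells, Gria1 took 588 CPM in CA3 (exact Poisson 95% interval 581 to 595) and 190 in AC (185 to 194).

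The Gria2 level ran from 0 to 12.30 in AC with a median of 11.02, and from 0.90 to 11.49 in CA3 with a median of 8.86. The means of 9.94 ± 3.55 and 8.20 ± 2.81 differed by 1.74, or 2.59 relative to all genes, which is within the SDs. Here 2 of 10 AC cells, N44 and N7, exceeded every CA3 cell in CPM, and 7 more AC cells lay between 321 and 733 CPM. A single cell moved this difference, to 2.84 without N41 and to 1.13 without N40. Over all labelled cells it was 0.17 with library size factors, no longer called. In summed reads Gria2 took 563 CPM in AC (555 to 571) and 237 in CA3 (233 to 241).

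Gria3 had a mean level of 4.59 ± 5.19 in AC and of 1.80 ± 3.34 in CA3, a difference of 2.79, or 3.64 relative to all genes, and below the SD over AC cells. With the level at 0 in 5 of 10 AC and 9 of 13 CA3 cells, the medians were 2.09 and 0. The level of Gria4 was 7.63 ± 4.41 in AC and 8.14 ± 2.93 in CA3. Its difference of -0.51 was not called and became 0.34 relative to all genes. Per kilobase of exons, the summed CPM was 45.3 for Gria4, 36.2 for Gria2, 31.4 for Gria1 and 14.8 for Gria3 in AC. In CA3 the order was Gria1 with 97.3, Gria4 with 32.4, Gria2 with 15.2 and Gria3 with 2.86.

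In CA1 the mean levels were 10.20 ± 0.30 for Gria1, 8.17 ± 4.40 for Gria2, 6.25 ± 5.47 for Gria3 and 9.84 ± 1.53 for Gria4. The CA1 Gria1 level lay within 0.02 of the CA3 level and 2.13 above AC. For Gria2 the CA1 level lay 0.03 under CA3, where N2X had a level of 3.10 and the other 2 cells 10.41 and 11.002. This near equality rests on single cells, since CA1 minus CA3 was 2.504 without N2X, -1.45 without N1 and -1.15 without N6. Among all tested genes 29.8% were higher in CA1 than in CA3 by at least 1 and 39.9% lower. Gria3 and Gria4 were among the higher, by 4.46 and 1.70. Leaving out 1 cell, Gria3 ran from 2.51 without N2X to 7.58 without N6. Gria4 ran from 1.02 without N27 to 2.55 without N6, and was 1.06 without N2X. In AC minus CA1, 27.1% of genes were called towards AC and 41.5% towards CA1. In this comparison Gria2 was called towards AC, with 1.77, and Gria1, Gria3 and Gria4 towards CA1, with -2.13, -1.67 and -2.21. Without N2X the Gria2 difference turned to -0.77 and the Gria3 difference to 0.28. The Gria2 difference was 2.87 without N41, 3.18 without N1 and 2.89 without N6, and the Gria3 difference -0.48 without N1 and -4.79 without N6. Gria1 was at -1.23 without N44, and Gria4 at -1.36 without N41 or N46. The 3 comparisons share their cells, so these values are not independent of each other. Leaving out each cell was the only alternative run for the level differences with CA1, chosen after the data were seen.

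**Figure D4:**
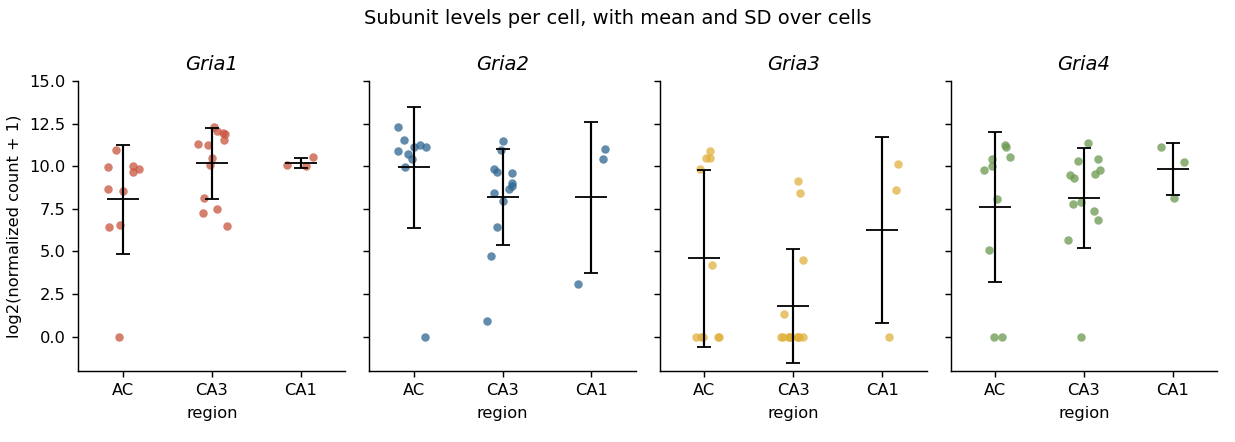
Each point is the level of 1 gene in 1 cell, as log2(normalized count + 1) on the y axis, by region on the x axis, with the mean as a wide bar and the SD over cells as error bars. Points at 0 are cells without a read, 1 AC cell each for Gria1 and Gria2, 5 AC, 9 CA3 and 1 CA1 cells for Gria3, and 2 AC and 1 CA3 cells for Gria4.

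The number of subunits read in a cell varied as well. With at least 10 reads required, all 4 genes were present in 4 of 10 AC, 3 of 13 CA3 and 1 of 3 CA1 cells. A set of 3 was present in 4 AC, 8 CA3 and 2 CA1 cells, and N41 of AC was the only cell with 1. The most read subunit took a median of 51.7% of the Gria reads in AC, 69.5% in CA3 and 47.6% in CA1. It passed 50% in 5 of 10, 11 of 13 and 1 of 3 cells.

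Across the 10 AC cells the levels of Gria1 and Gria4 had a Spearman correlation of 0.69 and those of Gria1 and Gria2 of -0.61. In the 13 CA3 cells the corresponding values were -0.15 and 0.30. Both pairs were the largest in size of all pairs in AC. The other pairs ran from -0.30 (Gria2 with Gria4) to 0.23 (Gria2 with Gria3) in AC. In CA3 they ran from -0.42 (Gria3 with Gria4) to 0.37 (Gria2 with Gria3). These are descriptions over cells that share size factors and, for an unknown part, a mouse. The Gria2 share had a correlation of -0.37 with total reads and 0.08 with detected genes in AC, and of 0.25 and 0.37 in CA3. For the Gria1 share the values were 0.44 and -0.16 in AC, and -0.24 and -0.20 in CA3.

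Markers of pyramidal cells, 5 genes, summed to 0.229 to 190 CPM in AC with a median of 67.8 and all 5 read. In CA3 they summed to 0 to 383 with a median of 9.29 and 3 read, and in CA1 to 0 to 648 with 2 read. The AC cells N46 and N44, with the highest Gria2 shares, had the highest sums in AC, 190 and 112 CPM. N3X came next with 109 CPM, at a Gria2 share of 18.4%, the lowest above 0 in AC. The sum came from 5 markers in N46 and from 1 in N44 and in N3X. The highest sums elsewhere were in N26 of CA3 and N1 of CA1, with Gria2 shares of 10.6 and 43.4%, and the part of these markers was not tested. Glial and microglial markers did not run alike in the regions either, as given above. Among AC cells with at least 1000 CPM of them were N46, N42, N4 and N41, and in CA3 N27, N28 and N39. When the 18 cells below 1000 CPM were used alone, a choice made after the data were seen, the Gria1 difference, AC minus CA3, was -45.9 points and the Gria2 difference 25.8 points. In levels they were -3.19 and 2.47. With cells of at least 500 Gria reads only, which leaves out N41 and N27, the share differences were -37.4 and 30.5 points. With all labelled cells that had a Gria read, 16 of 19 in AC with N4 and N4X as 1 cell and 19 of 21 in CA3, they were -26.8 and 14.03 points. The added cells include libraries rich in markers of other cells. Oligodendrocyte markers summed to 119833 CPM in N23, whose Gria1 share of 100% is 1 read, and to 27004 in N15, and astrocyte markers to 14528 in N10, 13230 in N13 and 11220 in N22. The part of these markers in the differences was not tested beyond these values.

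The partners of the receptor were described from fixed lists. Of 16 auxiliary subunit genes, 7 passed the filter, of which 1 was called towards AC and 5 towards CA3, where all genes gave 16.01% and 47.04%, with a median of -1.496 beside -0.85 for all genes. Shisa9, which encodes CKAMP44, had a mean level of 6.34 ± 4.62 in AC, 0.15 ± 0.56 in CA3 and 2.24 ± 3.88 in CA1, with reads in 8 of 10, 1 of 13 and 1 of 3 cells. Cnih2, a cornichon protein that slows receptor closing, stood at 7.56 ± 3.39 in AC, 9.90 ± 0.79 in CA3 and 10.17 ± 0.23 in CA1. It was read in all 13 CA3 cells and in 9 of 10 AC cells. Cpt1c, Cacng2, which encodes stargazin, and Shisa7 differed by -2.21, -1.90 and -1.496, or by -1.36, -1.05 and -0.64 relative to all genes, so Shisa7 falls under 1 on that scale. So does Prrt1, the last of the 5, named after its values were seen, with -1.32 and -0.47. Over the alternatives Cacng2 ran from -2.96 to -0.91, so its call did not hold throughout. Cnih2 relative to all genes was at -1.49 and Shisa9 at 7.04. Over the alternatives the differences of Cnih2 and Shisa9 ran from -2.69 to -1.49 and from 2.86 to 8.48.

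Of 14 anchoring and trafficking genes 13 were analysed and 11 passed the filter, with 3 called towards AC, 2 towards CA3 and a median of -0.08, beside 16.01%, 47.04% and -0.85 for all genes. Grip2, a scaffold that binds the tails of the Gria2 and Gria3 products, had mean levels of 4.70 ± 4.64 in AC, 1.09 ± 2.19 in CA3 and 6.62 ± 5.74 in CA1, and AC minus CA3 was 4.46 relative to all genes. Dlg3, which encodes SAP102, and Nptxr, the neuronal pentraxin receptor, were called towards AC with 2.49 and 1.31, or 3.35 and 2.17 relative to all genes. On that scale Nsf and Gripap1, named after their values were seen, also passed 1, at 1.06 and 1.12. Over the alternatives Dlg3 ran from 0.31 to 3.68 and Nptxr from -0.60 to 2.17, so neither call held throughout. Dlg1, which encodes SAP97, and Pick1, which also binds the Gria2 product, were called towards CA3 with -2.27 and -2.04, or -1.42 and -1.18 relative to all genes. Over the alternatives Dlg1 ran from -4.58 to -1.35 and Pick1 from -4.08 to -1.16.

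None of the 3 RNA editing genes was called, where all genes gave 16.01% towards AC and 47.04% towards CA3, though Adarb2 passed 1 relative to all genes. Adarb1, whose product edits the Q/R site of Gria2, was read in 5 of 10 AC, 8 of 13 CA3 and 1 of 3 CA1 cells. Levels averaged 3.17 ± 3.91 over AC cells and 3.92 ± 3.66 over CA3 cells, so they differed by -0.75, or 0.10 relative to all genes. Adar was read in all 26 cells and differed by 0.02, or 0.87 relative to all genes. Adarb2, whose product has no known editing activity, stood at 6.85 ± 4.79 over AC cells and 6.03 ± 3.76 over CA3 cells, 0.82 apart, or 1.67 relative to all genes, and its sign turned in some alternatives, down to -0.89.

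Among the other ionotropic glutamate receptor genes, 5 of 7 NMDA receptor genes passed the filter, and 2 were called towards AC and 1 towards CA3, beside 16.01% and 47.04% of all genes. Of these Grin2d and Grin1 were called towards AC with 2.54 and 1.53, or 3.396 and 2.38 relative to all genes. Grin3a was called towards CA3 with -3.20, or -2.34 on that scale. Of 5 kainate receptor genes 3 passed, 1 called in each direction beside the same shares, with Grik2 called towards AC with 3.80, or 4.66 relative to all genes, and Grik5 towards CA3 with -1.31, or -0.45 relative to all genes. Neither of the 2 delta receptor genes passed.

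**Figure D5:**
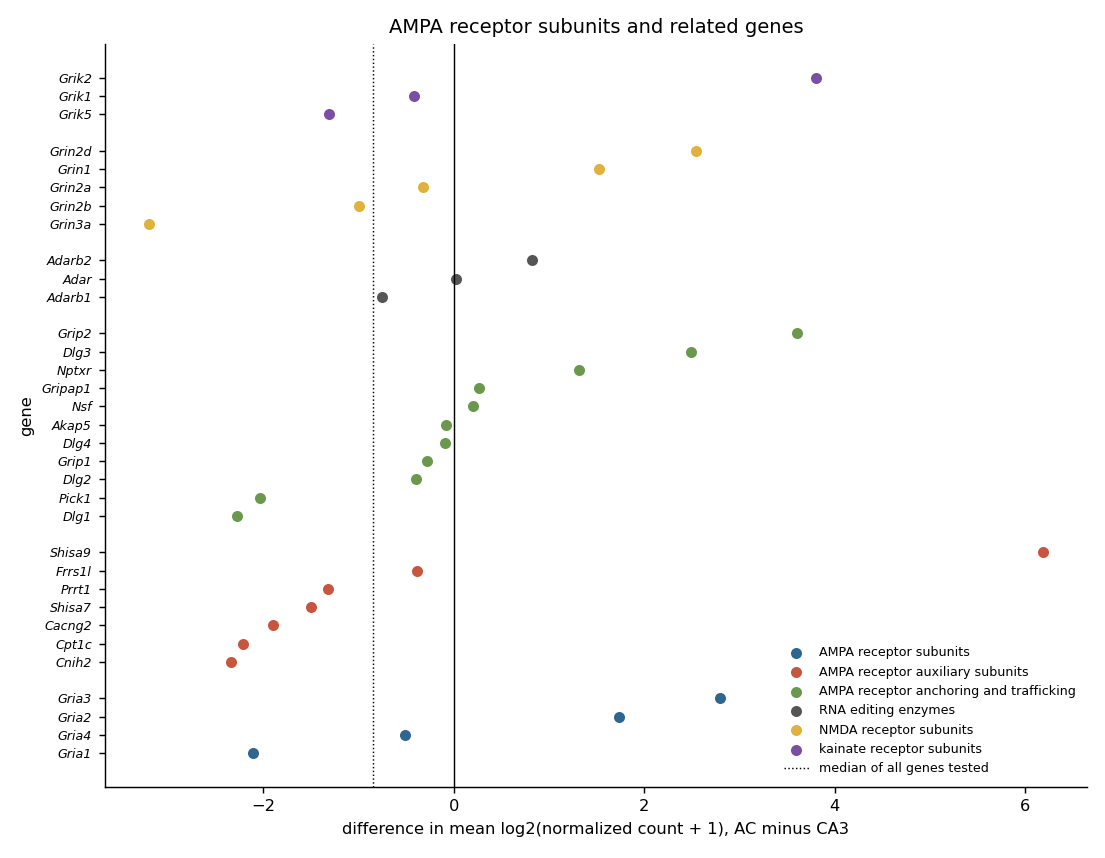
Points give the difference in mean log2(normalized count + 1), AC minus CA3 (x axis), for the 4 subunit genes and for the listed genes that passed the filter (y axis, by list). The solid line marks 0 and the dotted line the median of all 6597 genes, -0.85, with Shisa9 at 6.18 the farthest to the right and Grin3a at -3.20 the farthest to the left.

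The genes with the most similar levels were sought by Spearman correlation over the 26 cells, among the 6597 genes that passed the filter. Nearest to Gria2 were Zfp574 with 0.73, Zdhhc8 with 0.71 and Ptpn5, a tyrosine phosphatase known to act on glutamate receptors, with 0.65. Nearest to Gria1 were Epha6 with 0.67, 2200002D01Rik with 0.66 and Cntnap4 with 0.65. Cntnap4 had no read in AC and its value was 0.72 within CA3. Near to Gria3 were Apba1 with 0.78 and Qrich1 with 0.70. For Gria4 they were Nrxn3, a presynaptic adhesion molecule, with 0.70, Akirin2 with 0.63 and Efna3 with 0.63. Within AC and within CA3, Nrxn3 had values of 0.69 and 0.76 and Zfp574 of 0.82 and 0.75. Within CA3 the values of Ptpn5 and Akirin2 were lower, at 0.27 and 0.25, against 0.66 and 0.81 within AC. The highest of 6597 correlations are high by selection, and many of these genes had levels at 0 in some cells.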

How the data were processed

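Raw counts of reads per gene symbol and cell were deposited by the authors as a single table, without normalization. By the study's methods, Trimmomatic and Flexbar cleaned the reads, STAR placed them on Ensembl GRCm38 and HTSeq counted them, while the submitters' processing notes name featureCounts. Identifiers with the same symbol were averaged. Reads that fit more than 1 Gria gene could be counted differently by these tools.

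The members, cells and lists were chosen with earlier results of these data known. The AC and CA3 columns are those matched in earlier work to cells drawn in the study, and the match was not repeated here. The study counts more CA3 neurons past its quality control than the 13 used here. Some alternatives use all labelled columns. A listed trafficking gene was not analysed here.

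Shares, CPM (reads per 1000000 reads on genes), exact Clopper-Pearson and Poisson 95% intervals and Spearman correlations were computed in Python 3.11.15 with pandas 2.3.3 and scipy 1.17.1. The limit for a count of 0 is 3 reads. Size factors were those of scran 1.30.0 (R 4.3.3), pooling 10 and 20 cells at a time as the study did, and a pseudocount of 1 was added. Alternatives used library size, edgeR 4.0.16, DESeq2 1.42.0, other pseudocounts, thinning to 601781 reads and leaving out each cell. Gene lengths, positions and sequences came from GENCODE vM21. Named genes are the members, the 3 nearest genes of each (1 is not reported here), and called genes of the lists, up to 4 in each direction. Regions were not tested against each other, since each counts as 1 sample. The level step was also run on simulated data, and the outcome is not reported here.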

Additional observations from a re-analysis of the deposited data

Results flagged for a closer look

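In the 10 AC cells, the 4 shares and 4 levels were each checked for a cell that lies far from its nearest neighbour relative to the whole range, a check that chance trips in about 1 of 20 groups. Levels have a floor at 0 and the shares of a cell sum to 100%. All these measures also share their cells, so that rate need not hold here. N41 was set apart by its Gria1 share of 100%, and by its Gria2 level of 0. It had 353 Gria reads in 4370881 reads on genes and 1282 CPM of glial and microglial markers. N44 was set apart by a Gria1 level of 0, with 4774 Gria reads, 4534 of them on Gria2. Without N41 the share differences, AC minus CA3, were -38.3 points for Gria1 and 29.4 for Gria2.

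The 2 dentate gyrus cells entered no comparison. N12 had 86 reads, all on Gria2, more than the 3 that a count of 0 allows, and N11 had no Gria read. Astrocyte markers summed to 15097 CPM in N12 and oligodendrocyte markers to 39050 CPM in N11, and their part in these reads was not tested.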

How the results depend on the processing

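Over 24 comparisons of shares and levels, 576 further values were computed, 416 of them by leaving out 1 cell. Leaving out 1 cell of a group cannot move a mean by as much as the SD over cells, so those values are read against the call size. Of the 13 called differences 11 kept their sign in all of them, which does not mean that each call held. Among these 11, the levels of Gria3 and Gria4 in CA1 minus CA3 were varied by leaving out 1 cell only. So were those of Gria1 and Gria4 in AC minus CA1. The differences that changed sign were levels in AC minus CA1, varied in the same way. There Gria2 ran from -0.77 without N2X to 3.18 without N1 and Gria3 from -4.79 without N6 to 0.28 without N2X. The differences of Gria1 and Gria2 between AC and CA3 stayed called except the Gria2 level over all labelled cells. By leaving out 1 cell the Gria1 share difference ran from -38.3 to -26.8 points and the Gria2 share difference from 18.8 to 29.4. The uncalled Gria4 differences between AC and CA3 changed sign in 7 of 33 values for the share and 4 of 33 for the level. With medians over cells, Gria1 differed by -38.5 points between CA1 and CA3 and Gria2 by 2.81 between AC and CA1, where it was 3.77 without N2X, both under the call size. With summed reads Gria2 differed by 33.1 points there, and with all labelled cells Gria1 by -12.9 between CA1 and CA3. The cause was not tested. Gria3 in levels was 1.84 over all labelled cells and 5.46 without cells rich in glial markers. With any read in the 26 cells as the filter, 45.6% of all genes were called between AC and CA3 in place of 63.0%. No paired analysis was possible because the labels tie no cell to a mouse and replicate numbers only name cells. The share of genes higher in AC was 32.1%, 21.2% over all labelled cells and 49.99% after centring on the median gene. Low Gria reads limit the shares of N27 (158) and N41 (353).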

Other observations

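Many cells outside the rule had Gria reads on a single gene or none, and several carried markers of other cells. Oligodendrocyte markers summed to 112933 CPM in N18 and 119833 in N23, and astrocyte markers to 11220 to 14538 in N10, N13, N17 and N22. Of the 10 AC columns left, 3 had no Gria read and 4 had a single gene with at least 10 reads. N49 had 9787 Gria reads, 9786 of them on Gria4, with 738 detected genes. N48 had 1100 reads, all on Gria2, and N10 had 423, all on Gria2. N45 was unlike these, with 12183 Gria reads and shares of 46.8% for Gria1, 31.1% for Gria2, 11.7% for Gria3 and 10.4% for Gria4. In CA3, 2 of the 8 columns left had no Gria read, and N36 had 2323 Gria1 and 2327 Gria4 reads and none on Gria2 or Gria3. The NPY-negative CA3 cell N16 had no Gria read among 291745 reads on genes, with 168517 CPM of oligodendrocyte and 3.43 CPM of GABAergic markers.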
